A study of Mus musculus with 4 samples.

Results

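The replication-dependent histone genes are the cluster genes that supply the histones packed onto newly copied DNA. They were taken as every row of the table of FPKM (reads scaled by transcript length and by the depth of the library) whose symbol began with Hist1h to Hist4h, which gave 65 of the 25819 rows. By the class in the symbol, 6 were genes of the linker histone H1, 18 of H2A, 17 of H2B, 12 of H3 and 12 of H4. Not every row is a coding gene: the GENCODE M21 annotation lists Hist1h2al as a processed pseudogene, and it has no entry under the symbol Hist3h2bb. Cluster 1 held 51 of them on chromosome 13, from position 21807632, with Hist1h2al apart from the rest at position 51295453, cluster 2 held 10 on chromosome 3 between positions 96023839 and 96074115, cluster 3 held 3 on chromosome 11 between positions 58762413 and 58770176, and cluster 4 held the single gene Hist4h4 on chromosome 6. These positions are those of the table, whose genome build is not given in the sources used here.

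The expression values came from whole urogenital sinus (UGS), the embryonic structure from which the prostate grows, of male mouse embryos on a B6C3-F1 hybrid background. There were 4 RNA-Seq libraries: wild type and Tbx18Gfp/Gfp UGS at E16.5, and wild type and Tbx18Gfp/Gfp UGS at E18.5. Where 4 values are given, they are those of the libraries in this order. The mutants carried 2 copies of an allele of Tbx18, the gene of a mesenchymal T-box transcription factor, in which Gfp was knocked in so that no functional protein is made, in all tissues of the embryo. Each library was made from the pooled RNA of 3 embryos, so that each group had 1 library, the spread between embryos was not measured, and no difference below carries a test. Fewer cells of a type and less RNA per cell cannot be told apart in such tissue libraries.

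Histone genes of these clusters are transcribed mostly in S phase, when DNA is copied. Their mRNAs have no poly(A) tail. They end instead in a short stem-loop that is bound by the protein SLBP, and the cut after it is made with the U7 snRNP, a small RNA-protein particle. Some cluster genes also make polyadenylated mRNAs, in particular in cells that have stopped dividing. The libraries were prepared with a kit that captures mRNA by its poly(A) tail, so the values describe the part of histone RNA that such a preparation retains, and not the total histone mRNA of the tissue.

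The stem-loop could be read in the annotated transcripts of most members, and its letters differed between classes. Of the 64 members found in the GENCODE M21 annotation, 50 had an annotated 3′ UTR, and 44 of these held the histone stem-loop consensus, against 0.174% of 58725 other protein-coding transcripts. The stem-loop began a median of 32 bases past the stop codon, with a range of 22 to 59. The following windows show it in capitals for the highest H2A gene, the highest H1 gene, an H2B gene of cluster 3, the highest H3 gene and 2 H4 genes, 5′ to 3′ on the transcribed strand of GRCm38.
Hist1h2ao, chr13:21810893-21810918, plus strand: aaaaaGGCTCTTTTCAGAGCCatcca
Hist1h1c, chr13:23739507-23739532, plus strand: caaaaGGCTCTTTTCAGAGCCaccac
Hist3h2ba, chr11:58949344-58949369, plus strand: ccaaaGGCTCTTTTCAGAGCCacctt
Hist1h3c, chr13:23745042-23745067, minus strand: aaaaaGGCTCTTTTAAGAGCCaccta
Hist1h4d, chr13:23581945-23581970, plus strand: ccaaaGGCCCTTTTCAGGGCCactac
Hist1h4i, chr13:22040961-22040986, minus strand: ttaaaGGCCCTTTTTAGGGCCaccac
The form shown for Hist1h2ao was shared by 25 members of classes H1, H2A, H2B and H3 and by 0 of the H4 genes. The form of Hist1h4d was carried by 6 members, all of them H4, and that of Hist1h3c by 6 members outside H4.

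A second property of these transcripts may bear on their capture, which was not tested. The polyadenylation signal AATAAA lay in the last 50 bases of 13 of the 64 annotated transcripts (20.3%), against 40.6% of other protein-coding transcripts. Only 50 of the 64 had an annotated 3′ UTR, and a transcript annotated without one cannot show a signal past its coding sequence. The signal was present in Hist1h1c, Hist3h2ba, Hist3h2a, Hist1h2ae and Hist2h2be, which had the highest mean levels of the 13. All 13 together had a median mean level of 1.02 FPKM, against 1.16 FPKM for the 51 without the signal. In Hist1h1c the annotated transcript ran 840 bases past the stem-loop, in Hist3h2a it ran 1643 bases past it, and in Hist3h2ba 169 bases. In Hist1h2ao and Hist1h2ag, by comparison, it ended 31 and 23 bases past the stem-loop and held no such signal near its end.

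Many H2A and H2B genes lie head to head and share 1 upstream region, and the octamer ATTTGCAT, a promoter element known from H2B genes, was searched there. It was searched on both strands of the RefSeq promoters (250 bases before to 50 bases after the start, GRCm38.p6), to which 58 members could be matched. It occurred in 7 of 14 H2B and 7 of 17 H2A promoters and in 0 of the H1, H3 and H4 promoters, against 1.74% of 32851 promoters. The windows below are shown because the first pair is the same stretch read from both genes of a divergent pair, and the third belongs to a gene whose level stood apart in E18.5 wild type. The octamer or its reverse complement is in capitals.
Hist1h2bg, chr13:23571330-23571359, plus strand: ttgagtcccttATTTGCATagaacctctat
Hist1h2ae, chr13:23571330-23571359, minus strand: atagaggttctATGCAAATaagggactcaa
Hist2h2bb, chr3:96269641-96269670, plus strand: tgtgaaacctcATTTGCATacaagctctat
The letters CCAAT were present in every matched promoter of H1, H2A, H2B and H3 genes but in 3 of 11 H4 promoters, against 37.4% of all promoters, and TATAAA was present in 34 of 58 against 13.6%. Hist1h2ae was at 9.41 to 9.96 FPKM in all libraries, whereas its partner Hist1h2bg was at 1.79, 1.81, 0.698 and 2.17 FPKM. A match of letters describes these windows and says nothing about binding.

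Depth set what could be read. From genes that held a single read, the libraries were estimated to hold 63977143 mapped reads for wild type and 55726025 for Tbx18Gfp/Gfp at E16.5, and 29049751 and 52436306 at E18.5. The E18.5 wild type library was the shallowest and also stood apart in content. It was the lowest of the 4 for 63.7% of the 15023 genes that reached 1 FPKM anywhere, and the untailed RNA Rn7sk was at 81.6, 40.0, 637 and 34.4 FPKM. All results that involve this library are therefore given beside those that do not. Tbx18 itself was at 3.47, 2.50, 3.16 and 2.93 FPKM, which did not separate the genotypes by 2-fold, so its level gave no check of the labels. The markers of urogenital epithelium (10 of 10), mesenchyme (7 of 7) and smooth muscle (6 of 6) reached 1 FPKM.

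Of the 65 histone genes, 43 reached 1 FPKM in some library and 24 did so in all 4. The other 22 stayed below 1 FPKM throughout, and Hist1h2aa was listed at 0 in every library. H2A genes accounted for most of the signal. The summed FPKM of the members was 345, 370, 266 and 407, which was 0.0749%, 0.0746%, 0.0708% and 0.0807% of all FPKM, and H2A genes made up 78.8%, 76.9%, 73.8% and 79.2% of that sum. H2B genes summed to 39.2, 47.9, 42.1 and 46.8 FPKM, and H4 genes to 18.1, 17.98, 10.9 and 17.6 FPKM. H1 and H3 genes were lowest, at 8.48, 9.98, 6.46 and 12.6 FPKM and at 7.19, 9.64, 10.2 and 7.75 FPKM. The nucleosome holds equal numbers of H2A, H2B, H3 and H4 proteins, and these captured mRNA levels were far from equal in each library.

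**Figure D1:**
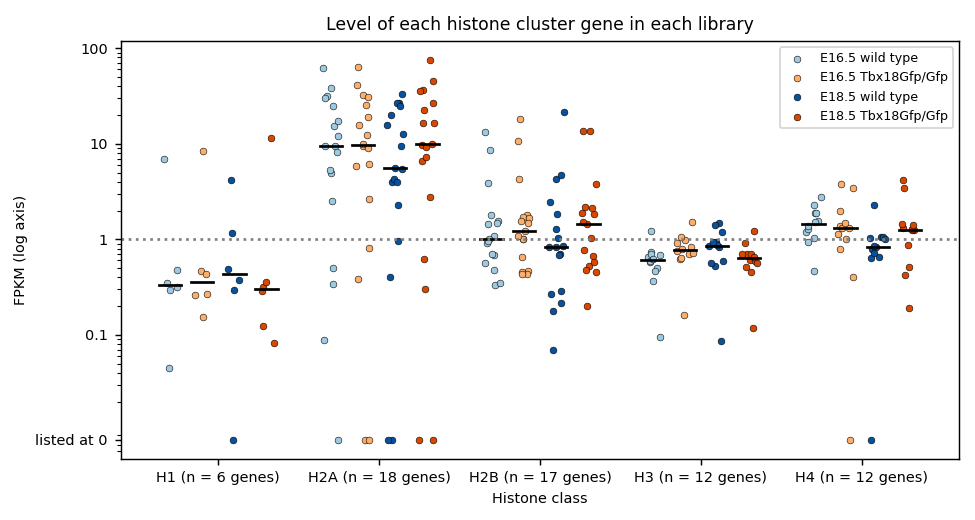
FPKM (log axis) of each of the 65 histone cluster genes, by histone class and library. Points are genes, black bars are medians over genes, genes listed at 0 are placed at the bottom, and the dotted line marks 1 FPKM. The H2A genes sit highest in every library, up to 75.8 FPKM, while most H3 genes lie below 1 FPKM.

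Row length bears on this contrast, because FPKM divides reads by an effective length that is shorter than the transcript. The highest member, Hist1h2ao, has a row of 393 bases and an effective length of 179. Its 61.4, 64.1, 33.6 and 75.8 FPKM corresponded to about 702, 639, 174 and 711 reads. Hist3h2a, an H2A gene with a row of 1990 bases, had more reads, about 932, 973, 284 and 852, at only 8.21, 9.83, 5.51 and 9.15 FPKM. Counted as reads on the 61 single-exon members, the H2A share was 69.3%, 67.3%, 67.1% and 68.7%, so that the predominance of H2A held on the reads of these members as well. They leave out Hist1h2bc, the H2B gene with the highest mean FPKM, at 8.69, 10.6, 21.5 and 13.7 FPKM, which would lower these shares. Over these 61 genes the median was 14.2, 13.2, 6.16 and 12.7 reads, and 4, 4, 15 and 8 genes had 3 reads or fewer.

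Within H2A, the level in FPKM went with how much sequence a gene shared with its copies. Reads from such copies cannot be assigned with certainty. The share of 50-base stretches found in no other gene had a median of 98.9% for H1, 65.8% for H4, 55.5% for H2B, 38.0% for H3 and 32.7% for H2A, and 29 of 64 members were under 50%. The 8 H2A genes with under 25% unique stretches had a median mean level of 20.8 FPKM, the 4 with 25% to 50% had 13.0 FPKM, and the 6 with more had 1.65 FPKM. Hist1h2ao itself had 6.50% unique stretches, and Hist2h2aa2 had 0%. Row length also differs between these genes and was not separated from sharing. In E16.5 wild type, Hist3h2a (1990 bases, 68.5% unique) had about 932 reads and Hist1h2ac (2493 bases, 85.9% unique) about 367. With rows of 393 bases, Hist1h2ao had about 702 reads and Hist1h2ai (9.88% unique) about 284. The H3 genes shared sequence to a like degree and yet stayed between 0.115 and 1.29 FPKM on average, so the relation was not general to the classes.

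**Figure D2:**
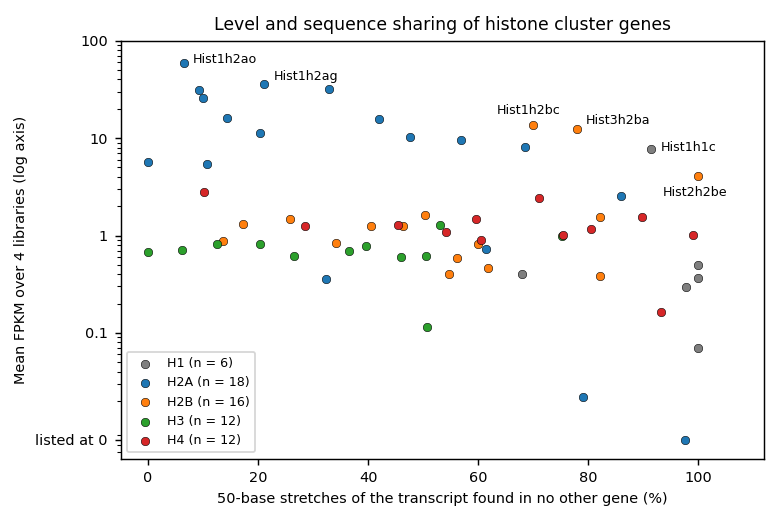
Mean FPKM over the 4 libraries (log axis) against the percentage of 50-base transcript stretches found in no other GENCODE gene, for the 64 histone genes in that annotation. Points are genes, coloured by class, and a gene at 0 is placed at the bottom. The 5 highest H2A genes all lie under 50% unique stretches, whereas Hist1h2bc, Hist3h2ba, Hist1h1c and Hist2h2be are high with 69.9% or more.

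Estimated reads came out whole, within 0.02 of an integer in every library, for only 6 of the 61 single-exon members, among them Hist2h2be with 597, 566, 301 and 480 reads and Hist2h2bb with 17, 17, 20 and 7. Hist1h2aa was at 0, and the remainder had fractional reads in at least 1 library. Hist1h4a and Hist1h4b had identical FPKM at E18.5, at 1.06 in wild type and 1.24 in the mutant. Hist1h2ab, Hist1h2ae and Hist1h2ai were almost equal in reads, at 284 to 295, 253 to 258, 130 to 136 and 252 to 256. The rows of 7 members also overlapped another row, among them Hist1h2af and Hist1h4h. Hist1h3b and Hist1h3d were also identical in the E18.5 mutant, at 0.709 FPKM. Under 50% unique stretches were 12 of 18 H2A, 6 of 16 H2B, 8 of 12 H3 and 3 of 12 H4 genes. Values of single H2A, H2B, H3 and H4 genes that share sequence are therefore uncertain as to which copy they came from. H2afx, which encodes H2AX, an H2A variant phosphorylated at DNA breaks, also shares up to 82 such stretches with members, and it was at 66.7, 74.8, 23.3 and 62.8 FPKM. Its part in the H2A values was not tested.

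The divergent pairs allowed H2A and H2B genes with a common upstream region to be compared. There were 10 pairs whose starts lay 176 to 306 bases apart. The H2A gene was higher in 7 of the 10 pairs in each library, with median ratios of 15.5, 13.0, 17.5 and 14.6. In the pair Hist1h2ag and Hist1h2bj, the H2A gene was at 37.9, 40.9, 19.8 and 45.1 FPKM and the H2B gene at 1.09, 1.23, 0.845 and 1.88 FPKM. The order was turned in the pairs Hist1h2ac with Hist1h2bc, Hist2h2ac with Hist2h2be, and Hist1h2aa with Hist1h2ba. The H2A genes of these turned pairs had 61.4% to 97.7% unique 50-base stretches, against 9.27% to 56.8% in the 7 other pairs. How far reads from other copies entered these ratios was not tested.

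**Figure D3:**
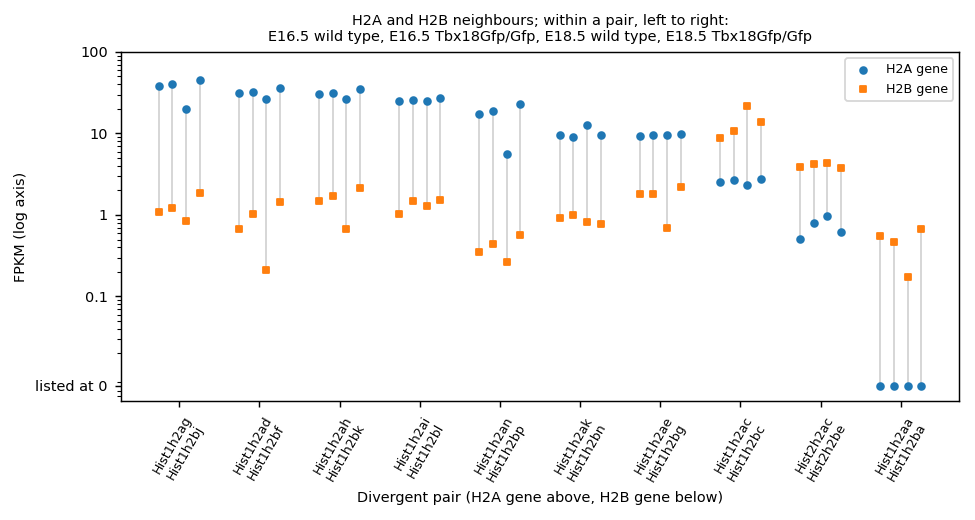
FPKM (log axis) of the H2A gene (blue circles) and the H2B gene (orange squares) of the 10 divergent pairs, each pair shown for the 4 libraries from left to right. Grey lines join the genes of a pair in 1 library, and genes listed at 0 are placed at the bottom. The H2A gene is above its partner in the 7 pairs on the left and below it in the 3 on the right.

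At E16.5 the histone genes were slightly higher in Tbx18Gfp/Gfp than in wild type UGS. A gene was compared where 1 of the libraries compared reached 1 FPKM. Of the 39 members so compared, 33 were higher and 6 lower in the mutant, where 54.2% of all genes compared were higher. The median difference was 0.11 on the log2(FPKM + 0.1) scale, against 0.01 over all genes. By size these differences were small, since 1 member was at least 2-fold higher and 0 were at least 2-fold lower, where 0.481% and 1.17% of the 14761 genes compared were so. At 1.5-fold, 2 members were higher (1.44% of genes) and 3 lower (2.72%). With all FPKM sums made equal, the median difference came to 0.01.

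All 12 H2B genes that passed the filter were higher in the E16.5 mutant, with a median of 0.17, and 13 of 14 H2A genes were higher, with a median of 0.05. The filter bears on the H2B count. Hist1h2bf, Hist1h2bn and Hist2h2bb reached 1 FPKM only in the mutant, so they could enter only as higher. Among H2B genes below 1 FPKM in both libraries, which were not compared, some were lower in the mutant and others higher. Hist1h2bb, for example, was at 0.479 and 0.432 FPKM. The H4 genes were divided, with 5 higher and 5 lower. The 1 gene past 2-fold was an H4 gene, Hist1h4i, at 1.87 FPKM and, in the mutant, 3.75 FPKM, which were about 38.6 and 67.5 reads. Its log2 fold change of 1.01 had a 95% interval of 0.41 to 1.61 from counting error alone, and it did not reach 2-fold with the all-gene median subtracted. Hist3h2ba, an H2B gene of cluster 3, was at 13.3 and 18.02 FPKM (log2 fold change 0.44, counting interval 0.23 to 0.65), and Hist1h1c, the most abundant H1 gene here, was at 7.002 and 8.39 FPKM (0.26, 0.10 to 0.43). Hist1h2ao differed by 0.06 with a counting interval of -0.09 to 0.22, which spans 0.

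Reads were also summed over the single-exon members of a class and divided by the mapped reads of the library. These depth-scaled reads were 1.11 times as high in the E16.5 mutant for all classes together (95% counting interval 1.07 to 1.14). The ratios were 1.17 for H1, 1.07 for H2A, 1.17 for H2B, 1.30 for H3 and 1.13 for H4, and the interval for H4 reached from 0.900 to 1.43. Hist1h1c held most of the H1 reads in each library. The H2B sums covered 14 of 17 genes and left out Hist1h2bc, the H2B gene with the highest mean FPKM. The median ratio of all genes was 1.01. These intervals cover counting error only, and neither the embryos nor the library preparation were replicated.

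At E18.5 the histone genes differed more widely, in both directions. Of 40 members that passed the filter, 31 were higher and 9 lower in Tbx18Gfp/Gfp than in wild type UGS, where 69.5% of all genes compared were higher. At least 2-fold higher were 13 members (15.1% of 14733 genes compared) and at least 2-fold lower were 6 (2.89%). With 1 FPKM required in both libraries, 6 members stayed at least 2-fold higher and none at least 2-fold lower. At 1.5-fold, 19 were higher (33.2%) and 7 lower (7.6%). The median difference was 0.44 against 0.30 over all genes, and 0.15 once the all-gene median was subtracted. Histone transcripts are short, with a median of 528 bases against 3388 for the genes compared, and rich in GC, at 57.9% against 49.9%. Over all genes, the trend with length and GC content stood at 0.75 at the median of the members, and with this trend subtracted the members' median turned to -0.14, with 3 members at least 2-fold higher and 8 lower. Among members with over 3 estimated reads in both libraries, a setting chosen after the values were seen, 10 were at least 2-fold higher and 5 lower. With the E16.5 wild type library in place of that of E18.5, a setting chosen after the values were seen and in which stage differs as well as genotype, 1 member was at least 2-fold higher and 1 was lower.

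The most abundant H2A genes were among those higher in the E18.5 mutant. Hist1h2ao was at 33.6 FPKM and, in the mutant, 75.8 FPKM (log2 fold change 1.18, counting interval 0.94 to 1.43), and Hist1h2ag was at 19.8 and 45.1 FPKM (1.19, 0.93 to 1.45). The differences were larger still for Hist1h2af, at 3.99 and 16.6 FPKM, and Hist1h2an, at 5.56 and 22.7 FPKM. These differences were uneven among near-identical genes, for Hist1h2ai was at 24.9 and 27.0 FPKM, and Hist1h2ab and Hist1h2ae differed by 0.08 and 0.06. Of the 14 H2A genes compared, 13 were higher, 4 of them by at least 2-fold, and 0 were 2-fold lower.

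Hist1h1c, which encodes a linker histone, had 91.5% unique stretches and was at 7.002, 8.39, 4.14 and 11.4 FPKM in the 4 libraries. It was lowest in E18.5 wild type, and the E18.5 mutant exceeded it 2.75-fold (log2 1.46, counting interval 1.21 to 1.71). Hist3h2ba, with 77.9% unique stretches, was at 13.3, 18.02, 4.71 and 13.6 FPKM, again lowest in E18.5 wild type (log2 1.53, 1.12 to 1.98). Its neighbour Hist3h2bb was not found under that symbol in GENCODE M21 and has no such percentage. An entry Hist3h2bb-ps in that annotation shares 22.1% of the stretches of Hist3h2ba. Hist3h2bb was at 1.43, 1.54, 0.0686 and 1.03 FPKM, where the E18.5 wild type value amounts to under 1 read. Hist3h2a, the H2A gene of this cluster, was at 5.51 and 9.15 FPKM (0.73, 0.54 to 0.93).

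The 6 genes at least 2-fold lower in the E18.5 mutant were Hist1h1a, Hist1h2bb, Hist1h3d, Hist1h3i, Hist2h2bb and Hist2h4, which come from all classes but H2A. None of them exceeded 2.47 FPKM in any library, and Hist2h4 had 2.98 reads in the mutant. Hist1h3i had 12.4% unique stretches, and the mutant value of Hist1h3d was the same as that of Hist1h3b, so their source copy is uncertain. All 6 were below 1 FPKM in the mutant, so they passed the filter only through the E18.5 wild type library in which they were higher. With 1 FPKM required in both libraries, none of the 6 would be compared. Hist2h2bb was at 0.953, 1.09, 2.47 and 0.479 FPKM, from the 17, 17, 20 and 7 reads given above (log2 -2.37, counting interval -3.85 to -1.07). Hist1h1a was at 0.293, 0.269, 1.16 and 0.286 FPKM, or 10, 8, 18 and 8 reads (log2 -2.02, -3.43 to -0.75). In both genes the E18.5 wild type library was high and the other 3 were low. The H3 genes as a class had a ratio of depth-scaled reads of 0.745 (0.562 to 0.990), the only class below 1.

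Among the H2B genes with an annotated 3′ UTR, Hist1h2bc and Hist2h2be were those in which no stem-loop was found. Hist1h2bc, whose row spans a spliced transcript and for which reads could not be estimated, was at 8.69, 10.6, 21.5 and 13.7 FPKM and was highest in E18.5 wild type. Hist2h2be was nearly level at 3.88, 4.23, 4.31 and 3.81 FPKM. Its difference at E18.5 was -0.18 with a counting interval of -0.39 to 0.03.

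**Figure D4:**
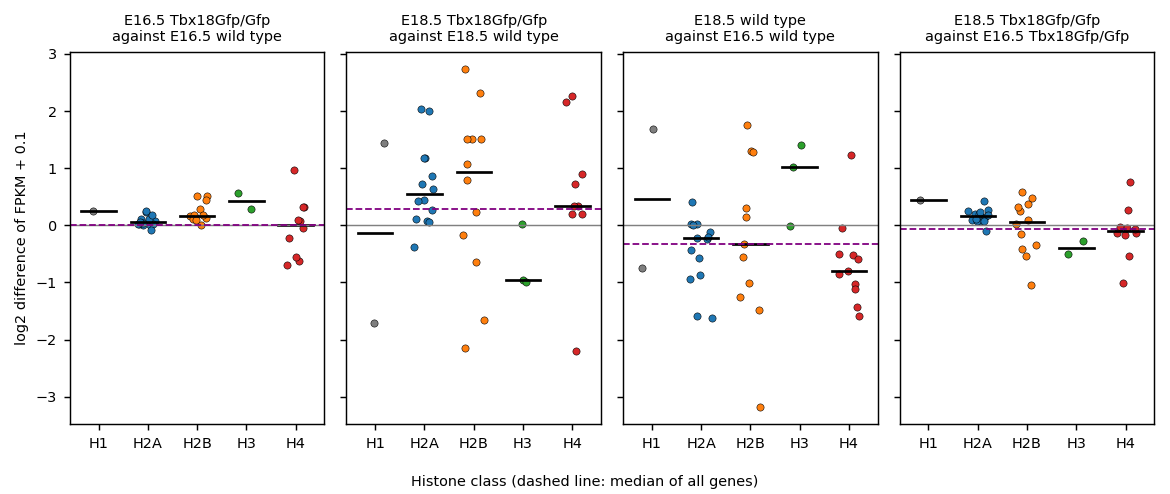
Difference of log2(FPKM + 0.1) for each histone gene that reached 1 FPKM in a library of the comparison, by class. Points are genes, black bars class medians, the grey line 0, and the dashed line the median of all genes. The 2 panels with E18.5 wild type show the wide scatter, from -3.19 to 2.74, while the E16.5 genotype panel and the mutant stage panel stay within -1.04 and 0.97.

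Ratios of depth-scaled reads at E18.5 were 2.13 (1.84 to 2.47) for H1, 1.58 (1.49 to 1.67) for H2A, 1.21 (1.08 to 1.36) for H2B and 1.92 (1.36 to 2.81) for H4. The H1 ratio rested mostly on Hist1h1c, with about 162 of 233 reads in wild type and 804 of 896 in the mutant. Of the 2 H1 genes that passed the filter, 1 was higher and 1 lower. The H2B ratio left out Hist1h2bc, which was lower in the mutant, at 21.5 and 13.7 FPKM. With Hist1h2bc included, all 17 H2B genes summed to 42.1 and 46.8 FPKM. Over all single-exon members the ratio was 1.54 (1.47 to 1.61), where the median ratio of all genes was 1.22. With the 9 H2A genes of cluster 1 that had under 50% unique stretches left out, the H2A ratio was 1.42 (1.29 to 1.55). Markers of erythroid cells moved the same way as these sums. Their summed level was 17926, 28871, 5860 and 28491 FPKM, 7 of 10 listed markers were in the table, and 6 of them passed the filter, all higher in the mutant at each stage. Of the 6 macrophage markers, 6 were higher at E16.5 and 5 at E18.5, with summed levels of 49.2, 58.5, 41.1 and 59.2 FPKM. The 6 smooth muscle markers were all lower in the mutant at E16.5 and all higher at E18.5, at sums of 1128, 588, 1303 and 3599 FPKM. The part of these markers in the histone values was not tested.

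**Figure D5:**
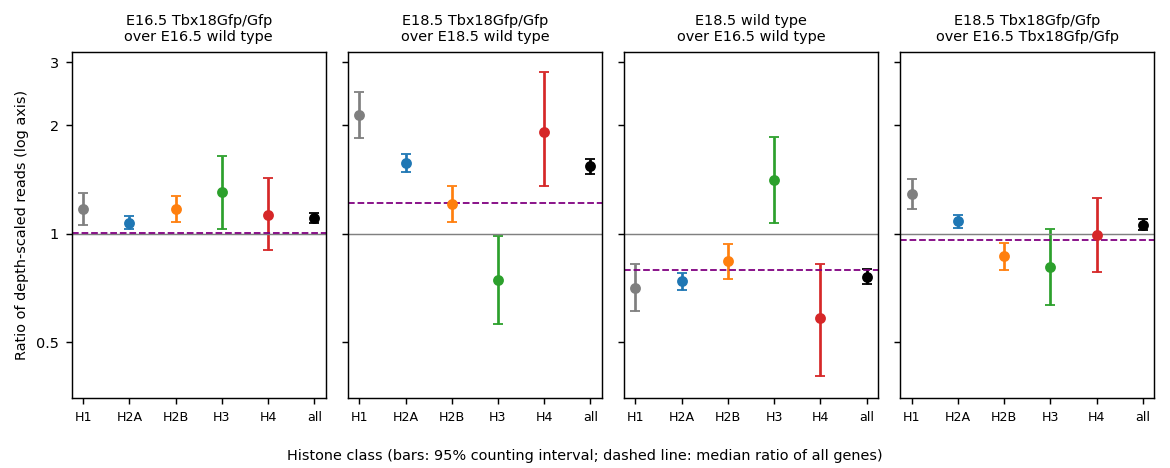
Ratio of estimated depth-scaled reads (log axis) between the libraries of each comparison, summed over the single-exon genes of each class and over all 61. Bars are 95% exact intervals of counting error only, the grey line is 1, and the dashed line is the median FPKM ratio of all genes. At E18.5 the ratios run from 0.745 for H3 to 2.13 for H1, and at E16.5 from 1.07 to 1.30. Most H1 reads are those of Hist1h1c, and the H2B sums leave out Hist1h2bc.

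Across both stages, 36 members passed the filter in each genotype comparison. Of these, 28 (77.8%) were higher in the mutant at both stages and 1 was lower at both, against 40.3% of 14471 genes higher at both. Members such as Hist1h2bg, Hist1h2bk, Hist1h4i and Hist1h4m reached 1 FPKM at E18.5 only in the mutant, so they could pass only as higher. Others, such as Hist2h2bb, could pass there only as lower. How many of all genes did so was not counted. The count also ignores size: the E16.5 median came to 0.0070 with equal FPKM sums. The E18.5 median turned to -0.14 with the length and GC trend subtracted. The libraries of these comparisons are separate, yet sequence sharing among members means that they are not independent of each other.

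The stage comparisons share their libraries with the genotype comparisons above. In wild type, 28 of 41 members were lower at E18.5 than at E16.5 and 13 were higher, where 72.3% of all genes compared were lower. The median was -0.43 against -0.35 over all genes. At least 2-fold lower were 10 members (16.8% of 14807 genes) and 7 were at least 2-fold higher (2.7%). Of these 7, only Hist1h2bc reached 1 FPKM in E16.5 wild type. At 1.5-fold, 17 were lower (35.9%) and 7 higher (6.8%). With the length and GC trend subtracted, this median turned to 0.32, with 11 members at least 2-fold higher and 0 lower. In Tbx18Gfp/Gfp UGS, 23 of 39 members were higher and 16 lower at E18.5, where 35.3% of all genes compared were higher. The median was 0.08 against -0.06 over all genes, and came to -0.0057 with no filter on FPKM. Only Hist1h4f, with 2.65 reads at E18.5, and Hist2h2bb were at least 2-fold lower (0.571% of 14713 genes) and 0 were 2-fold higher (1.35%). At 1.5-fold, 2 were higher (3%) and 2 lower (1.68%). The difference between these stage effects was not tested, and both rest on 1 library per group.

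By class, the wild type stage ratios of depth-scaled reads were 0.709 for H1, 0.738 for H2A, 0.839 for H2B, 1.42 for H3 and 0.586 for H4. The corresponding mutant ratios were 1.29, 1.08, 0.867, 0.809 and 0.995, and the intervals of H3 and H4 spanned 1. With Hist1h2bc included, all 17 H2B genes summed to 39.2 and 42.1 FPKM in wild type, and to 47.9 and 46.8 FPKM in the mutant. Among the single genes in the mutant, Hist1h1c was higher at E18.5 (8.39 and 11.4 FPKM, log2 0.44, counting interval 0.29 to 0.59) and Hist3h2ba was lower (18.02 and 13.6 FPKM, -0.41, -0.63 to -0.19).

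The E18.5 wild type library was the lowest of the 4 for 27 of the 43 members that reached 1 FPKM in any library (62.8%), close to the share of all genes (63.7%). It was at least 2-fold below each other library for 9 members (12.2% of all genes) and at least 2-fold above each for 4 (1.8%). The 9 were Hist1h2af, Hist1h2an, Hist1h2bf, Hist1h2bg, Hist1h2bk, Hist1h4i, Hist1h4m, Hist3h2ba and Hist3h2bb, and the 4 were Hist1h1a, Hist1h2bb, Hist2h2bb and Hist2h4. In that library Hist1h2bf had 1.03, Hist1h4m 2.43 and Hist3h2bb 0.50 estimated reads, so that 3 of the 9 rest on fewer than 3 reads. Hist1h4i, for example, was at 1.87, 3.75, 0.630 and 3.43 FPKM, and Hist2h4 at 0.929, 0.400, 2.30 and 0.425 FPKM.

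Other histones and the machinery of histone mRNA were examined beside the members. Replacement histones are encoded by genes outside the clusters, with polyadenylated mRNAs that are made through the whole cell cycle. The highest of them were far above any cluster gene in these libraries. H3f3a and H3f3b, which encode H3.3, were at 579, 620, 613 and 593 FPKM and at 373, 397, 328 and 352 FPKM, with little spread. H2afz, which encodes H2A.Z, was at 153, 148, 52.4 and 184 FPKM, with E18.5 wild type low as in Hist1h2af and Hist1h2an. Of 11 replacement histone genes that passed the filter, 9 were higher in the mutant at each stage, with medians of 0.09 and 0.41. Of all genes compared, 54.2% were higher at E16.5 and 69.5% at E18.5, against which the counts of this list and of those that follow should be read.

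Of the 16 stem-loop processing genes compared, 10 were higher in the mutant at E16.5 and 13 at E18.5, with medians of 0.02 and 0.30, the latter equal to that of all genes. Slbp was at 42.3, 47.9, 39.8 and 41.8 FPKM, a narrow range. The U7 snRNP genes Lsm10 and Lsm11 were lowest in E18.5 wild type, at 11.3, 12.3, 4.98 and 11.5 FPKM and at 3.61, 3.66, 1.89 and 3.58 FPKM. Npat, which encodes the activator of histone genes found at the histone locus body, went the other way, at 7.59, 8.03, 11.4 and 7.73 FPKM. Among 11 genes of that body and of histone gene transcription, 10 were higher in the mutant at E16.5 and 8 at E18.5. Of 14 histone chaperones, 9 and 10 were higher, with Nasp at 63.7, 68.9, 59.4 and 58.5 FPKM.

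Genes of DNA replication are transcribed in the same phase of the cell cycle as the cluster histones. Of 33 compared, 32 were higher in the mutant at E16.5 (median 0.10) and 28 at E18.5 (median 0.40, or 0.11 with the all-gene median subtracted). All 33 were lower at E18.5 than at E16.5 in the mutant, with a median of -0.16, where the histone members had 0.08. Pcna, the sliding clamp of DNA polymerase, was at 121, 138, 101.5 and 128 FPKM, and Rrm2, a subunit of ribonucleotide reductase, at 28.0, 31.1, 16.8 and 28.2 FPKM. Of 20 genes of G2 and mitosis, 18 were higher in the mutant at E16.5 (median 0.10) and 11 at E18.5 (median 0.06). Mki67 was at 40.8, 44.2, 62.1 and 37.7 FPKM, highest in E18.5 wild type, whereas 11 of the 20 genes were lowest in that library.

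RNAs that other polymerases or pathways make without a poly(A) tail were compared as well. Of 7 that passed the filter at E16.5, 5 were at least 2-fold lower in the mutant, against 1.17% of all genes compared. Of 6 that passed at E18.5, 3 were at least 2-fold lower, against 2.89%, and 2 were higher. Rmrp was at 28.5, 9.94, 27.1 and 9.45 FPKM and Rpph1 at 8.60, 1.91, 11.6 and 1.52 FPKM, lower in the mutant at both stages. Of the histone members, 33 of 39 were higher in the E16.5 mutant, with a median of 0.11, and 1 of them was at least 2-fold higher. At E18.5, 13 of 40 members were at least 2-fold higher in the mutant and 6 at least 2-fold lower. Any difference between libraries in the capture of untailed RNA was not measured, and its part in the histone values was not tested.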

How the data were processed

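Single-end, strand-specific reads had been aligned by the authors with TopHat2 2.1.0 after trimming with Trimmomatic 0.30 and estimated expression with Cufflinks 2.2.1 (tools and versions also from the submitters' processing notes, which name CASAVA 1.8.2 as well). The deposited values are FPKM, 1 column per library, with no scaling between libraries stated. How reads that match several genes were treated is not given in the sources used here.

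The members and the lists beside them were chosen with earlier results of these data known. Folds are ratios of FPKM, taken only where 1 of the libraries compared reached 1 FPKM. Medians are of log2(FPKM + 0.1), which understates differences of low genes. Counts are at 2-fold and 1.5-fold. Named members were the 5 highest of each class by mean FPKM and the 3 largest differences each way among members at 5 FPKM or more in 1 library and 1 FPKM or more in the other. Others above 1 FPKM, such as Hist1h4i, Hist2h2bb, Hist1h1a and Hist3h2bb, were named after their values were seen.

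Depth was estimated from the olfactory receptor genes that held 1 read, 15 to 27 of them in a library, since the inverse of such FPKM is linear in gene length. Residuals were at most 0.000292%. Reads of single-exon members follow from it, and are approximate for the shortest rows. Intervals of read ratios are exact Clopper-Pearson intervals (95%) of the binomial share of rounded reads, and cover counting error only. Members with 3 reads or fewer in a library stayed in the counts, and their reads are given where they are named.

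Sequences, 50-base stretches and stem-loops came from GENCODE M21 transcripts (GRCm38), and promoters from RefSeq. No coordinates were converted between builds. Scripts (Python 3.11.15, pandas 2.3.3, numpy 2.4.6, scipy 1.17.1, statsmodels 0.14.6) were tested on simulated data. With 1 library per group no test was run and no SD given. Alternatives were other scalings, pseudocounts and filters, and a lowess trend on length and GC.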

Additional observations from a re-analysis of the deposited data

Results flagged for a closer look

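Hist1h3d and Hist1h4h differed between genotypes by at least 1.5-fold in opposite directions at E16.5 and E18.5, with over 3 estimated reads in each library. For Hist1h3d the log2 fold change of mutant over wild type at these stages was 0.63 and -1.05, and for Hist1h4h -0.69 and 0.79. Hist1h3d had about 8.53, 11.5, 8.41 and 7.32 reads and Hist1h4h about 21.1, 11.4, 6.11 and 19.05 in the 4 libraries. The difference between the stages was not tested, and each of the 4 counting intervals spans 0. In the E18.5 mutant, Hist1h3d and Hist1h3b were listed at the same 0.709 FPKM, so the copy behind this value is uncertain.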

How the results depend on the processing

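With 1 pooled library per group, the spread between embryos or preparations is unknown. Low depth at E18.5 wild type leaves 15 of 61 single-exon members at 3 reads or fewer. No paired analysis was possible because each group has 1 library. Of 143 alternative values for the members as a whole, 106 kept their direction and size (medians within their 95% order-statistic interval over members, counts and sums within 1.5 times the value given). The cause of the others was not tested, except where fewer genes were counted.

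Both comparisons that use E18.5 wild type turned under 1 setting. The genotype median at E18.5 rose to 0.68 with a filter of 5 FPKM, fell to 0.15 with the all-gene median subtracted, to 0.14 with upper quartile scaling and to 0.013 with equal FPKM sums, and turned to -0.14 with the length and GC trend subtracted, when 3 members were at least 2-fold higher and 8 lower. Under that trend the H2A median turned to -0.26 and the H4 median to -0.086, and equal sums gave -0.045 for H4. A filter of 5 FPKM in either library, or of 1 FPKM in both, left 6 members at least 2-fold higher and 0 lower, and a pseudocount of 1 left 2 lower. With E16.5 wild type as the reference, chosen after seeing the data, 1 was higher and 1 lower.

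In wild type, the stage median turned to 0.32 and that of H4 to 0.13 with the length and GC trend subtracted, with 11 members at least 2-fold higher and 0 lower. A pseudocount of 1 gave 1 higher and 5 lower, the filter of 5 FPKM gave 1 and 3, and 1 FPKM in both gave 1 and 4. At E16.5, equal sums gave a genotype median of 0.0070 and an H2A median of -0.055. The 1 member at least 2-fold higher came to 0 with equal sums, the all-gene median, upper quartile scaling, a pseudocount of 1, the filter of 5 FPKM or the trend, and no filter gave 3 higher and 3 lower. In the mutant, the 2 members at least 2-fold lower at E18.5 came to 0 with a pseudocount of 1, the filter of 5 FPKM or 1 FPKM in both, to 1 with the trend subtracted or, chosen after seeing the data, over 3 reads in both libraries, and to 4 without a filter, where 1 was higher and the median was -0.0057.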
